A study of Mus musculus with 12 samples.

Results

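The snoRNA host genes examined here are noncoding genes whose introns carry small nucleolar RNAs (snoRNAs). The selection named 8 genes (Snhg1, Snhg4, Snhg5, Snhg6, Snhg8, Snhg12, Gas5 and Zfas1) and took every gene of the deposited table with one of these symbols. It found 5 of the 40481 genes: Gas5, Snhg5, Snhg6, Snhg12 and Zfas1. Snhg1, Snhg4 and Snhg8 were matched by no symbol and were not analysed here. The gene IDs of Snhg1 and Snhg8 in the GENCODE M21 annotation were not in the table either, and that annotation held no Snhg4.

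RNA sequencing was run on hematopoietic stem cells (HSCs) sorted from wild-type (WT) mice and from mice with an inducible ETV6-RUNX1 gene (iE/R), a fusion of a pair of transcription factor genes known from childhood leukemia. Fetal liver cells came from E14.5 embryos and bone marrow cells from animals of 8 weeks. Cells of both genotypes then spent 3 days in a culture that expands HSCs, with doxycycline at 1 µg/mL, so the WT controls had the drug too and no group lacked it. Each of the 4 groups (WT bone marrow, ETV6-RUNX1 bone marrow, WT fetal liver, ETV6-RUNX1 fetal liver) had 3 libraries. What drives the fusion, the strain and the number of animals behind a library are not given in the labels, so the p-values measure only the spread between these samples, which may be technical.

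A snoRNA host gene is transcribed and spliced like any other gene, and its introns, once removed, are trimmed to snoRNAs while the exons form a spliced RNA. Most intronic snoRNAs guide chemical modification of ribosomal RNA: the box C/D class directs 2′-O-methylation with the methyltransferase fibrillarin, and the H/ACA class directs pseudouridylation with dyskerin. Many host genes, Gas5 among them, start transcription at a pyrimidine tract like that of ribosomal protein genes (5′ TOP), and their spliced RNA is broken down by nonsense-mediated decay when it is translated.

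The snoRNAs are what the host genes are named for, so examples are shown first. The GENCODE M21 annotation of GRCm38 put 10 snoRNA genes inside Gas5, 5 inside Snhg12, 3 inside Zfas1, 2 inside Snhg5 and 1 inside Snhg6. Snord80 in Gas5 and Snora16a in Snhg12 are annotated under separate gene IDs at nearly the same position, and each ID is counted here and below. One box C/D snoRNA of each measured host, with both copies of Snhg5, reads as follows in GENCODE M21, 5′ to 3′ on the snoRNA's strand. Capitals mark box C (TGATGA) near the 5′ end and box D (CTGA) near the 3′ end.
Snord50a (in Snhg5): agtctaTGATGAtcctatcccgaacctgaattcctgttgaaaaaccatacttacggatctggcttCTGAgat
Snord50b (in Snhg5): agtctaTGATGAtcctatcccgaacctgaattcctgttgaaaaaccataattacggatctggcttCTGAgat
Snord87 (in Snhg6): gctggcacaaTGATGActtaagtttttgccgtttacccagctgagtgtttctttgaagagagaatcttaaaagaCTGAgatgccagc
Snord47 (in Gas5): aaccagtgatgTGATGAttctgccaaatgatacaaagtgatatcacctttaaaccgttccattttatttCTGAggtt
Snord99 (in Snhg12): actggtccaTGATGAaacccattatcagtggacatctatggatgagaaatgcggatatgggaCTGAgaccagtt
Snord12 (in Zfas1): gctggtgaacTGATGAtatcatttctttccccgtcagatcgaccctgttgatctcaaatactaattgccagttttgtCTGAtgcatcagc

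The Snhg5 copies are 72 bases long and differ by 1 substitution, C50A from Snord50a to Snord50b, counted from 1 at the annotated 5′ end. Of 25 box C/D genes inside the 7 members that the annotation holds, 19 carried both boxes with these letters. The lengths of all 25 ran from 60 to 126 bases. A different class is shown by Snora24, the H/ACA snoRNA inside Snhg8. It is printed because it was among the few snoRNAs of these hosts with reads and because it stands in for a host that has no value of its own. The capitals mark its ACA box.
Snora24 (in Snhg8): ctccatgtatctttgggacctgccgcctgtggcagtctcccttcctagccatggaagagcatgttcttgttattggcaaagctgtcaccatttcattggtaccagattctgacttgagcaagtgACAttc

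The measured hosts lie on 4 chromosomes of GRCm38. Gas5 (ENSMUSG00000053332) is on the plus strand of chromosome 1, 161034422 to 161038539. Snhg6 (ENSMUSG00000098234) is on the minus strand of the same chromosome, 9941959 to 9944118. Snhg5 (ENSMUSG00000097195) is on the minus strand of chromosome 9, 88521050 to 88522929. Snhg12 (ENSMUSG00000086290) is on the plus strand of chromosome 4, 132308623 to 132311024, and Zfas1 (ENSMUSG00000074578) on the plus strand of chromosome 2, 167062934 to 167065862. The annotated exons of all isoforms, merged, cover 3760 bases in Gas5, 1730 in Snhg5, 1146 in Snhg6, 2402 in Snhg12 and 2929 in Zfas1. In Snhg12 and Zfas1 this is the full length of the gene, because some annotated isoforms keep the introns.

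Start sites are shown to describe the hosts, and their part in the differences of level was not tested. The bases come from RefSeq (GRCm38.p6), the last 50 before the start and the first 50 after it, on the transcribed strand. Capitals mark a C followed by at least 4 more C or T within 20 bases of the start, a pattern chosen after the sequences were seen.
Gas5, downstream of its 2 starts (chr1:161035116-161035215): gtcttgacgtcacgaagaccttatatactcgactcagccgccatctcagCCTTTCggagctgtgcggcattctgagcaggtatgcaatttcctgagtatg
Snhg12 (chr4:132308628-132308727): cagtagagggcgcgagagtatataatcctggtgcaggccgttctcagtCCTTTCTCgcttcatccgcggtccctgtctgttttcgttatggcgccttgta
Snhg5 (chr9:88522848-88522947): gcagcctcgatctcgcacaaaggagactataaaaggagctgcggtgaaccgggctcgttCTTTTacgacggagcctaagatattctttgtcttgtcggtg
Zfas1 (chr2:167062884-167062983): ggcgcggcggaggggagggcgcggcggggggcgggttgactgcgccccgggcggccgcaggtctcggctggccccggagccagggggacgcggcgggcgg

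The run was present at these starts of Gas5, Snhg12 and Snhg5 and was not found at that of Zfas1 or at the upstream start of Gas5, and 45.9% of 32851 promoters in the same table hold it. Snhg6 had no entry. Motifs were searched on both strands from 250 bases before to 50 after each start. The E-box CACGTG (in 7.15% of all promoters), the RUNX motif TGTGGT (16.8%) and the ETS motif CCGGAAGT (3.89%) were found in none of the promoters of Gas5, Snhg12, Snhg5 and Zfas1. A match or its lack describes these letters only.

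Levels are in CPM, a gene's reads scaled to a fixed library total. Library totals were 32.3 to 64.5 M reads, so that 3 reads, taken as the detection floor, equalled 0.0465 to 0.0928 CPM, and this floor covers counting error only. All 10 HSC markers reached 1 CPM in at least 3 libraries, with summed levels of 1669 to 2022 CPM in WT and 3793 to 3875 CPM in ETV6-RUNX1 fetal liver, and of 1860 to 2592 CPM in WT and 2707 to 2981 CPM in ETV6-RUNX1 bone marrow. The sums hide unlike members: mean Ly6a was 19.05 CPM in WT and 880 CPM in ETV6-RUNX1 fetal liver (90.5 and 504 CPM in bone marrow), while Cd48, which is low on HSCs, was at 183 and 21.5 CPM (167 and 40.1 CPM in bone marrow). Of 10 markers of mature blood cells 3 passed that limit, and the T cell gene Cd3e was at 0 in all 12 libraries. Their sum was 4.75 to 6.68 CPM in WT and 24.8 to 25.4 CPM in ETV6-RUNX1 fetal liver, and 2.38 to 6.21 and 19.1 to 32.1 CPM in the bone marrow groups. Of 7 hepatocyte markers 4 passed, with sums of 16.6 to 39.9 CPM in all libraries and Serpina1a at 0. Endothelial and stromal markers (4 of 7 passed) summed to 147 to 177 CPM in ETV6-RUNX1 fetal liver and 64.7 to 105 CPM elsewhere. This sum is mostly Pecam1, at a mean of 69.7 CPM in WT and 141 CPM in ETV6-RUNX1 fetal liver. There Cdh5 was at 6.36 and 15.5 CPM, whereas Pdgfrb was at 5.38 and 0.229 CPM and Kdr at 6.79 and 6.32 CPM. The HSC and mature blood sums differed by genotype without overlap in both sources and the endothelial and stromal sum in fetal liver, whereas the hepatocyte sums overlapped. Their part in the host gene differences was not tested. In bulk RNA, fewer cells of a type and less RNA per cell cannot be told apart. Runx1, a partner of the fusion, averaged 227 CPM in fetal liver libraries with the fusion against 121 CPM in WT (SD 15.02 and 12.98, n = 3 each), and 170 against 96.3 CPM in bone marrow (SD 25.8 and 9.17).

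WT bone marrow replicate 1 stood apart for these genes. It had the highest level of 12 libraries for Gas5, Snhg5 and Zfas1, the second highest for Snhg12 and the third highest for Snhg6. Its summed level of the 5 hosts was 1758 CPM, and the lowest library of its group had 1088 CPM. Where its loss ended a host's call or changed a sign, the value without it is given.

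In fetal liver, ETV6-RUNX1 HSCs had less Snhg5, Snhg6 and Gas5 RNA than WT HSCs. Snhg5 fell to 0.451 of the WT mean, Snhg6 to 0.554 and Gas5 to 0.675. Snhg12 was at 0.772 of WT without passing the test, and Zfas1 at 1.12. A gene was called when its adjusted p was under 0.05 in limma with Benjamini-Hochberg adjustment over 14271 genes on log2(CPM + 1), a scale that understates changes of low genes. So 3 of the 5 measured hosts were called lower, beside 18.3% of all genes tested, and 0 were called higher, beside 24.8%. For 4 of the 5 hosts all ETV6-RUNX1 libraries lay below all WT libraries, as they did for 23.3% of all genes.

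Snhg5, which holds both SNORD50 copies and whose human counterpart lies at a lymphoma translocation breakpoint, gave the widest gap. WT fetal liver replicates 1 to 3 had 121, 114 and 119 CPM of Snhg5 (118 ± 3.70, SD, n = 3), and ETV6-RUNX1 replicates had 53.5, 57.6 and 48.6 CPM (53.2 ± 4.51). All 3 ETV6-RUNX1 libraries lay far below the lowest WT library. The log2 fold change was -1.14 ± 0.15 (SE, limma adjusted p 4.0e-05), and the call held in 22 of 22 alternatives.

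Snhg6, the host of Snord87, followed. Its WT fetal liver values were 79.1, 88.0 and 88.6 CPM (85.2 ± 5.33, SD, n = 3) against 45.3, 41.0 and 55.3 CPM (47.2 ± 7.38) with ETV6-RUNX1. The ranges did not overlap. The log2 fold change was -0.85 ± 0.14 (SE, limma adjusted p 0.000269), called in 22 of 22 alternatives.

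Gas5, first described as a transcript that builds up in growth-arrested cells, was the most abundant host. WT fetal liver had 802, 861 and 991 CPM (885 ± 96.6, SD, n = 3) and ETV6-RUNX1 fetal liver 522, 637 and 632 CPM (597 ± 65.2). The groups did not overlap, although they stood closer than for Snhg5 and Snhg6. The log2 fold change was -0.57 ± 0.17 (SE, limma adjusted p 0.0166). The call was lost without WT fetal liver replicate 3 (-0.48), without ETV6-RUNX1 fetal liver replicate 1 (-0.47) and when all genes with reads were tested, so it held in 19 of 22 alternatives (limma, edgeR or DESeq2 adjusted p 0.000509 to 0.0745).

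Snhg12, the least abundant measured host, had 19.0, 18.9 and 20.1 CPM in WT fetal liver (19.3 ± 0.659, SD, n = 3). ETV6-RUNX1 fetal liver had 13.8, 13.8 and 17.1 CPM (14.9 ± 1.92), again with no overlap. The log2 fold change of -0.36 ± 0.18 (SE) did not pass (limma adjusted p 0.125). It passed in 2 of 22 alternatives, quantile normalization (-0.62) and array weights, which weigh each library by its noise (-0.40).

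Zfas1, a host transcribed away from the start of Znfx1, did not share the pattern. It had 133, 150 and 167 CPM in WT fetal liver (150 ± 17.0, SD, n = 3) and 116, 195 and 194 CPM with ETV6-RUNX1 (168 ± 45.5). ETV6-RUNX1 replicate 1 lay below every WT library and the other replicates above every one. The log2 fold change was 0.13 ± 0.23 (SE, limma adjusted p 0.664), called in none of 22 alternatives, and its sign turned with array weights (-0.11).

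**Figure D1:**
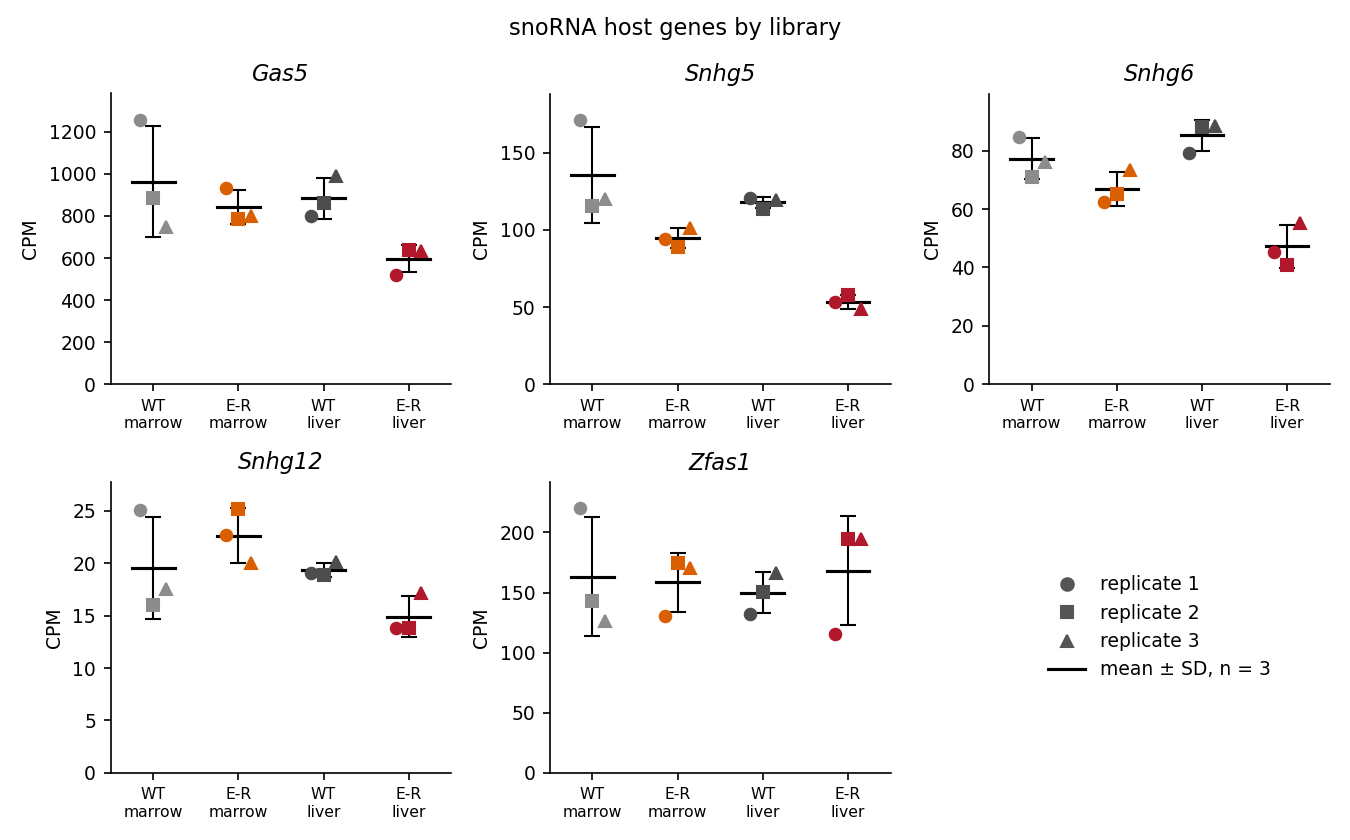
Level of each measured host gene (CPM, linear axes from 0) in the 12 libraries by group (E-R, ETV6-RUNX1; liver, fetal liver); marker shapes are replicates, and bars show the mean ± SD (n = 3). Snhg5, Snhg6 and Gas5 are lowest in ETV6-RUNX1 fetal liver, and WT bone marrow replicate 1 has the highest Gas5, Snhg5 and Zfas1.

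In bone marrow, Snhg5 alone of the measured hosts passed the test of genotype: 1 of 5 was called lower, beside 4.93% of all genes, and 0 were called higher, beside 14.4%. Snhg5 was at 0.699 of its WT mean. All 3 ETV6-RUNX1 libraries lay below all 3 WT libraries for 1 of 5 hosts, and for 10.9% of all genes.

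Bone marrow levels of Snhg5 were 171, 116 and 120 CPM in WT (136 ± 31.0, SD, n = 3) and 94.1, 88.8 and 101 CPM with ETV6-RUNX1 (94.8 ± 6.37). The ranges did not overlap, and the WT spread came from the high replicate 1. The log2 fold change was -0.49 ± 0.15 (SE, limma adjusted p 0.0331), against a median of 0.13 over all genes. Without WT bone marrow replicate 1 it was -0.31 and not called. The call was also lost without ETV6-RUNX1 bone marrow replicate 1 (-0.49) or 2 (-0.45) and with all genes tested, which left 18 of 22 alternatives (adjusted p 0.00473 to 0.109).

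For Snhg6 the WT bone marrow values were 84.8, 71.0 and 76.1 CPM (77.3 ± 6.96, SD, n = 3) and the ETV6-RUNX1 values 62.4, 65.2 and 73.5 CPM (67.0 ± 5.78). A single ETV6-RUNX1 library reached into the WT range, and the log2 fold change of -0.20 ± 0.14 (SE) did not pass (limma adjusted p 0.326). Gas5 had 1257, 887 and 748 CPM in WT bone marrow (964 ± 263) and 935, 788 and 802 CPM with ETV6-RUNX1 (842 ± 81.2). Its WT libraries spanned the whole ETV6-RUNX1 range (log2 fold change -0.17 ± 0.17 SE, limma adjusted p 0.533), and without WT replicate 1 the log2 fold change was 0.043.

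Snhg12 had 25.05, 16.0 and 17.6 CPM in WT bone marrow (19.5 ± 4.85, SD, n = 3) and 22.7, 25.2 and 20.02 CPM with ETV6-RUNX1 (22.6 ± 2.59). Here 2 of 3 WT libraries lay under the lowest ETV6-RUNX1 library and the third near the highest, with a log2 fold change of 0.22 ± 0.18 (SE, limma adjusted p 0.408). Zfas1 had 220, 143 and 127 CPM in WT (163 ± 49.8) and 131, 175 and 170 CPM with ETV6-RUNX1 (159 ± 24.3). The means were close and the ranges overlapped (-0.01 ± 0.23 SE, limma adjusted p 0.973), and without WT replicate 1 the log2 fold change was 0.22 and not called.

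Whether the genotype effect differed between the sources was tested as an interaction, the fetal liver log2 fold change minus that in bone marrow. No host was called lower (0 of 5, beside 3.62% of all genes) or higher (beside 5.56%, together 9.19%) by limma, and edgeR and DESeq2 also gave none. By unadjusted p under 0.05, 3 of 5 passed, beside 3796 of all 14271 genes tested. The values were -0.65 ± 0.20 (SE) for Snhg6 (limma p 0.0055, adjusted 0.0553) and -0.64 ± 0.21 for Snhg5 (limma p 0.0083, adjusted 0.0686). For Snhg12 the interaction was -0.58 ± 0.26 (limma adjusted p 0.164) and for Gas5 -0.40 ± 0.24 (limma adjusted p 0.312), so 4 hosts had a lower value in fetal liver than in bone marrow and none differed beyond the threshold.

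The interaction depended on WT bone marrow replicate 1. Without that library 4 hosts were called lower: Snhg5 at -0.82, Snhg6 at -0.71, Snhg12 at -0.77 and Gas5 at -0.61. Calls grew over all 14271 genes too, with 1024 called lower, against 517 in the main fit. Array weights also called the same 4 (Snhg5 -0.75, Snhg6 -0.73, Snhg12 -0.78, Gas5 -0.64), beside 1948 of all genes called lower. Snhg6 was called without ETV6-RUNX1 fetal liver replicate 3 (-0.76), beside 694 of all genes called lower. Zfas1 had 0.15 ± 0.32 (SE, limma adjusted p 0.813) and turned to -0.088 without WT bone marrow replicate 1.

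**Figure D2:**
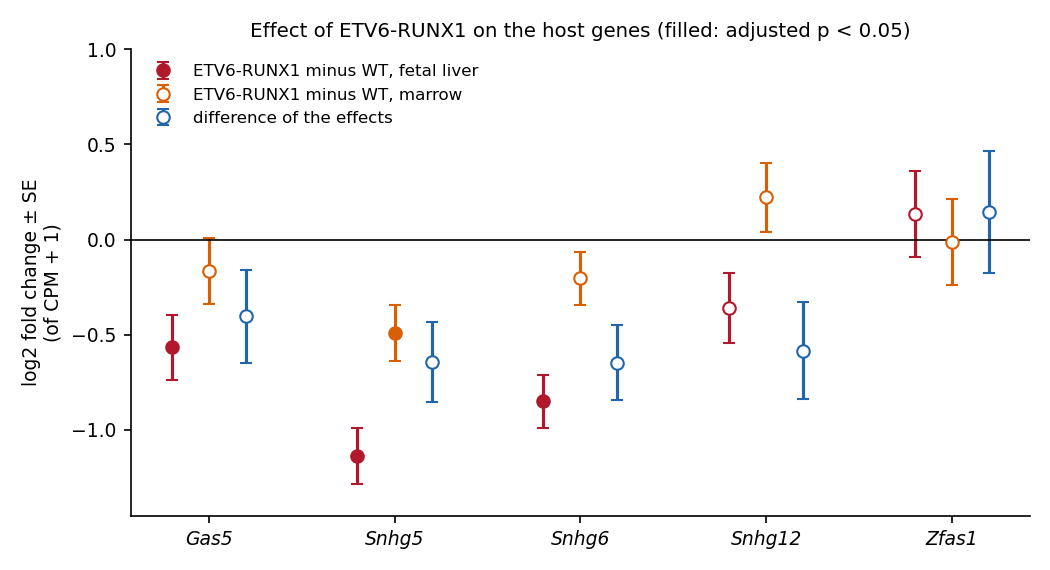
Log2 fold change ± SE of each measured host on the log2(CPM + 1) scale in the comparisons of genotype and source; filled points have a limma adjusted p under 0.05. In fetal liver Snhg5, Snhg6 and Gas5 are filled and below 0, in bone marrow Snhg5 is, and Zfas1 stays near 0.

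Between the sources, no measured host passed the test in WT cells. Of 5 hosts 0 were called lower in WT fetal liver than in WT bone marrow (limma), beside 7.77% of all genes, and 0 higher, beside 3.38%. None passed at an unadjusted p under 0.05 (0 of 5, beside 3610 of all 14271 genes) or with edgeR or DESeq2. The ranges overlapped for each of the 5 hosts, whereas 18.9% of all genes had fetal liver libraries below all bone marrow libraries and 10.6% above. The log2 fold changes ran from -0.18 ± 0.15 (SE, Snhg5, limma adjusted p 0.489) to 0.14 ± 0.14 (Snhg6, adjusted p 0.564). Those of Gas5 (-0.09) and Zfas1 (-0.09) changed sign under scalings between libraries.

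Among ETV6-RUNX1 cells, 4 of 5 hosts were called lower in fetal liver than in bone marrow, beside 18.2% of all genes, and 0 higher, beside 10.4%. The same 4 had no overlap, as did 27.8% of all genes in that direction. Snhg5 was at 0.562 of its bone marrow mean (-0.82 ± 0.15 SE, limma adjusted p 0.000976) and was called in 22 of 22 alternatives. Snhg12 was at 0.659 (-0.57 ± 0.18, limma adjusted p 0.0294), Snhg6 at 0.704 (-0.50 ± 0.14, adjusted p 0.0151) and Gas5 at 0.709 (-0.50 ± 0.17, adjusted p 0.0442). The calls of Snhg6, Snhg12 and Gas5 were lost under median-of-ratios scaling, TMM scaling, edgeR and DESeq2, where the median of all genes moved from -0.16 to between -0.02 and 0.00, and so depended on how libraries were scaled. Leaving out single libraries also ended calls. That of Snhg6 was lost without ETV6-RUNX1 bone marrow replicate 3 (-0.44) or ETV6-RUNX1 fetal liver replicate 1 (-0.48) or 2 (-0.41). That of Snhg12 was lost without ETV6-RUNX1 bone marrow replicate 1 (-0.57) or 2 (-0.50) or ETV6-RUNX1 fetal liver replicate 1 or 2 (-0.52 each). The Gas5 call was lost when each of the 6 ETV6-RUNX1 libraries was left out in turn (-0.55 to -0.40), and without WT bone marrow replicate 2 or WT fetal liver replicate 1 or 2, which leave its fold change as it was. This comparison shares the ETV6-RUNX1 fetal liver libraries with the comparison of genotypes. Zfas1 was at 1.06 (0.06 ± 0.23, limma adjusted p 0.876).

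Placed in order, mean Snhg5 was lowest in ETV6-RUNX1 fetal liver, then ETV6-RUNX1 bone marrow, WT fetal liver and WT bone marrow, and only the WT groups overlapped with each other. Gas5 had the same order, with overlap between every pair of neighbours except the lowest. Snhg6 ran from ETV6-RUNX1 fetal liver through ETV6-RUNX1 and WT bone marrow to WT fetal liver, and again only the lowest group stood clear of its neighbour. Snhg12 was lowest in ETV6-RUNX1 fetal liver, followed by WT fetal liver, WT bone marrow and ETV6-RUNX1 bone marrow, with overlap between neighbours above the lowest group. For Zfas1 all neighbours overlapped.

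Per kilobase of annotated exon, Gas5 led in every group, at 256 and 224 CPM per kb in bone marrow (WT, then ETV6-RUNX1) and 235 and 159 in fetal liver. Snhg5 was at 78.4, 54.8, 68.2 and 30.8 CPM per kb in the same order of groups, and Snhg6 at 67.4, 58.5, 74.4 and 41.2. Snhg12 was lowest throughout, from 6.21 to 9.43 CPM per kb. In the WT groups Zfas1, at 55.8 and 51.1 CPM per kb, lay below Snhg5 and Snhg6. In ETV6-RUNX1 fetal liver the order turned, with Zfas1 at 57.4 CPM per kb above both. The bases used for Zfas1 and Snhg12 cover the whole gene, introns included. Those for Gas5 (3760 of 4118) and Snhg5 (1730 of 1880) cover most of it, against 1146 of 2160 in Snhg6. These orders therefore depend on the length used. In CPM without this division, mean Zfas1 was above Snhg5 and Snhg6 in every group.

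Correlations between the hosts contain the group differences given above, because the libraries of all groups enter them. Over the 12 libraries the Pearson correlation of log2(CPM + 1) was 0.883 between Snhg5 and Snhg6, 0.874 between Snhg5 and Gas5, and 0.778 between Snhg6 and Gas5. Snhg12 had 0.748 with Gas5, 0.617 with Snhg6 and 0.608 with Snhg5. Zfas1 had 0.025 with Snhg5 and with Snhg6, and 0.331 with Gas5. These are descriptions over libraries that share group and depth.

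The genes whose level across the 12 libraries most resembled the mean standardised profile of the 5 hosts were Smim11 (Pearson r 0.940), Ssbp1 (0.938), Hilpda (0.937), Zmat2 (0.934) and Magohb (0.934). Snhg5 was most like Dtd1 (0.979) and Exosc7, an RNA exosome subunit (0.977). The nearest to Snhg6 were Ppp1r14b (0.982) and Banf1 (0.969). Gas5 was most like Adat2 (0.963), a tRNA-editing deaminase subunit, and Snora24 (0.923), the snoRNA printed above. Snhg12 was nearest to the ribosomal protein pseudogenes Rpl30-ps8 (0.946) and Rps15-ps2 (0.899). For Zfas1 the highest values were lower, 0.814 with Ppp1r11 and 0.812 with Prorsd1.

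The snoRNAs themselves were largely unseen. Inside the 5 measured hosts, 19 of 21 annotated snoRNA genes were in the table and 17 had no read in any library. The gene IDs missing from it were further entries of Snora16a and Snord80, which it holds under other IDs. Of the 21, 20 overlap annotated exons of their host, and Snord87, which had reads, is the one that does not. Reads in such an overlap could count for the host, the snoRNA or neither, and the rule used is not stated. All 17 without a read are among the 20, so a level of 0 here need not mean a low level. The part of this counting in the zeros, and how far these libraries capture mature snoRNAs, was not tested.

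Snord87 had 2.05, 1.46 and 1.38 CPM in WT fetal liver and 1.34, 0.180 and 0.840 CPM with ETV6-RUNX1. All ETV6-RUNX1 values lay below the WT values, the highest just under the lowest, and the log2 fold change of -0.60 ± 0.25 (SE) did not pass (limma adjusted p 0.0646). It passed in 5 of 21 alternatives, among them the median-of-ratios (-0.66), TMM (-0.67) and quantile (-0.82) scalings and the fit without ETV6-RUNX1 replicate 1 (-0.83). In bone marrow WT had 2.21, 1.93 and 2.57 CPM and ETV6-RUNX1 2.38, 1.21 and 1.67 CPM, which overlapped (-0.25, limma adjusted p 0.509). Its host Snhg6 was called lower in fetal liver and not in bone marrow.

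Snora24, inside Snhg8, was called lower in ETV6-RUNX1 fetal liver, with 2.25, 3.68 and 3.36 CPM against 6.05, 4.58 and 5.89 CPM in WT. The groups did not overlap, and the log2 fold change was -0.68 ± 0.24 (SE, limma adjusted p 0.0316, called in 17 of 21 alternatives). The call was lost without WT fetal liver replicate 1 (-0.62) or 3 (-0.63), without ETV6-RUNX1 fetal liver replicate 1 (-0.52) and with all genes tested. Bone marrow had 9.05, 4.95 and 4.68 CPM in WT and 4.67, 4.54 and 4.05 CPM in ETV6-RUNX1 cells. There too every ETV6-RUNX1 library was the lower, the nearest almost level with WT, and the test was not passed (-0.36, limma adjusted p 0.292). Snora24 overlaps annotated exons of Snhg8, so its reads may belong to the host.

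Over all genes of the snoRNA class, 480 of 1509 had reads and 34 were tested. In fetal liver 9 were called lower and 1 higher in ETV6-RUNX1 (median log2 fold change -0.28), and in bone marrow 1 lower and 0 higher (-0.19), beside the shares of all genes given above. In fetal liver their levels summed to 159.6 ± 13.6 CPM (SD, n = 3) in WT and to 113.5 ± 4.28 CPM with the fusion, 0.711 of WT. The groups did not overlap, which gives a two-sided exact permutation p of 0.1, the smallest that 3 against 3 allows. In bone marrow the WT sums were 204, 164 and 147 CPM and the ETV6-RUNX1 sums 161, 174 and 163.5 CPM (means 171.5 ± 29.2 and 166 ± 6.92, SD, n = 3 each, exact permutation p 0.8). The higher WT mean rests on replicate 1, since of the other WT libraries one lies within and one below the ETV6-RUNX1 range.

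**Figure D3:**
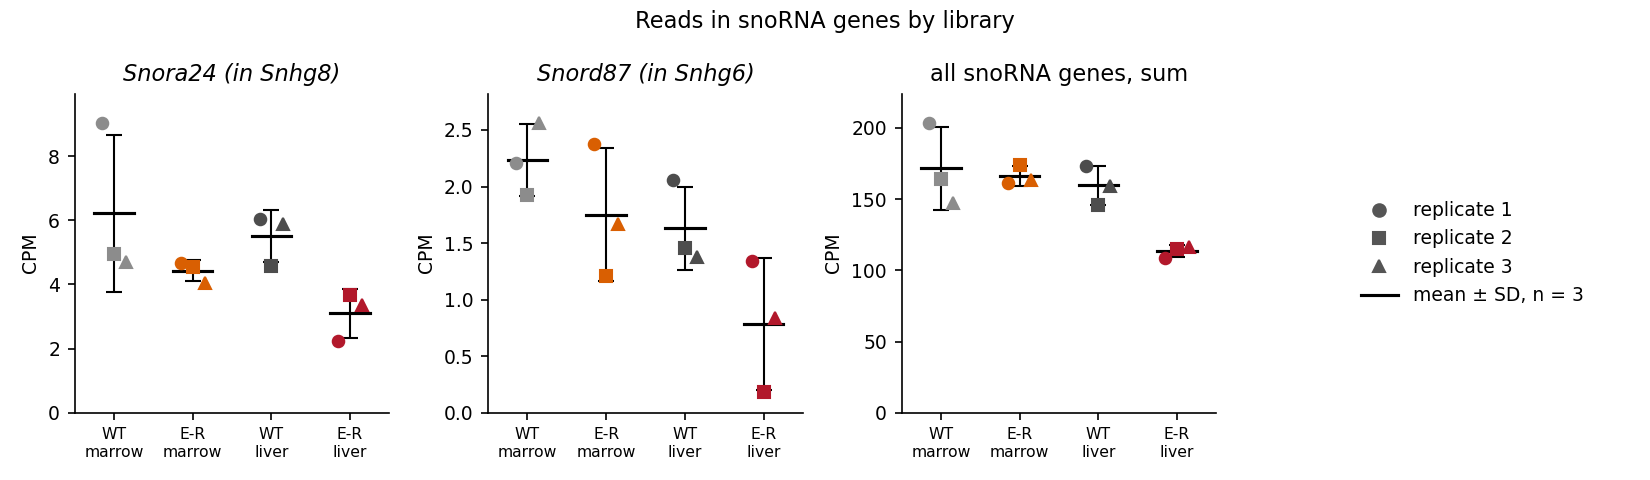
Levels (CPM, axes from 0) of Snord87, Snora24 and the sum of all snoRNA genes in the 12 libraries by group, with the mean ± SD (n = 3). ETV6-RUNX1 fetal liver has the lowest mean in each panel, and the WT bone marrow replicates spread widely for Snora24 and the sum.

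Neighbouring genes bear on how the hosts were counted. Znfx1, which encodes a zinc finger helicase of the interferon response, starts 81 bases from Zfas1 on the opposite strand, and their exons share 82 bases. Znfx1 had 11.7, 8.27 and 6.13 CPM in WT fetal liver and 142, 82.6 and 159 CPM with ETV6-RUNX1, a ratio of 14.7. The groups lay far apart (3.72 ± 0.31 SE, limma adjusted p 4.38e-07). In bone marrow Znfx1 had 11.4, 21.7 and 18.7 CPM in WT and 43.2, 81.5 and 51.7 CPM with ETV6-RUNX1 (1.70 ± 0.31 SE, limma adjusted p 0.00241). Zfas1, across the same stretch, was called in neither. The kit keeps strand, but its use in counting is not stated, and the part of Znfx1 reads in the Zfas1 values was not tested.

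**Figure D4:**
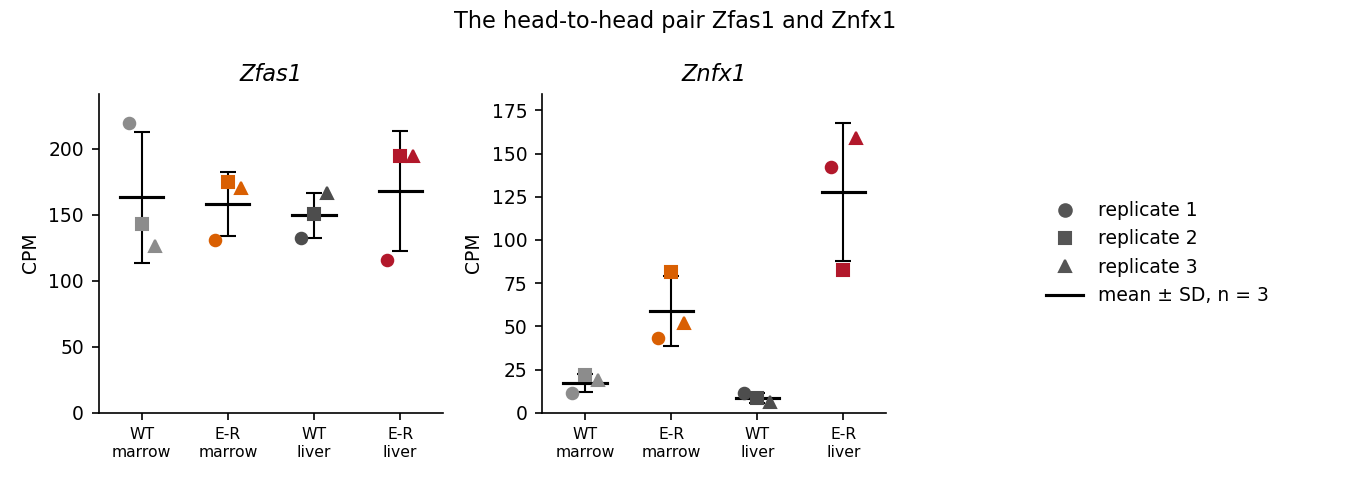
Levels of Zfas1 and its opposite-strand neighbour Znfx1 in the 12 libraries by group (CPM; axes as labelled). Znfx1 is 14.7 times higher in ETV6-RUNX1 than in WT fetal liver, while the Zfas1 ranges overlap.

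Zbtb37, which encodes a zinc finger protein and starts 427 bases from Gas5 on the opposite strand, overlaps Gas5 by 428 bases but shares no exon bases with it. Its fetal liver values were 2.36, 2.44 and 2.44 CPM in WT and 3.42, 6.63 and 4.65 CPM with ETV6-RUNX1. It rose where Gas5 fell (0.75 ± 0.20 SE, limma adjusted p 0.00805), and was not called in bone marrow (-0.09, adjusted p 0.783). Slc3a2, the amino acid transporter heavy chain whose start is 106 bases from that of Snhg1, fell in the fetal cells (log2 fold change -0.29 ± 0.11, SE, limma adjusted p 0.0451) and rose in bone marrow (0.36 ± 0.11, adjusted p 0.0375). Its interaction was -0.65 ± 0.16 (limma adjusted p 0.0201), called in 18 of 22 alternatives, while the separate calls held in 11 and 9, and the bone marrow call was lost under each of median-of-ratios scaling, TMM, edgeR and DESeq2 (0.20 to 0.21). Mcmdc2, which overlaps the 3′ end of Snhg6 by 127 bases, was below the filter, at 0.198 to 1.14 CPM. Its fetal liver values were 0.519, 0.736 and 0.667 CPM in WT and 0.420, 0.198 and 0.300 CPM with ETV6-RUNX1, lower without overlap, as for Snhg6, and the part of shared reads was not tested.

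Other genes of the pathway were taken from 6 lists, each read against the shares of all genes given above. Of 13 further noncoding hosts, 6 were tested, and in fetal liver 4 were called lower and 1 (Snhg14, 0.59, limma adjusted p 0.0493, lost in most alternatives, and named after its value was seen) higher. The median log2 fold change was -0.75, against 0.08 over all genes. Snhg15 fell from 48.0 to 27.2 CPM (-0.79 ± 0.18 SE, limma adjusted p 0.00302), Snhg17 from 19.1 to 11.4 CPM (-0.70 ± 0.16, adjusted p 0.00355) and Epb41l4aos from 18.8 to 10.3 CPM (-0.83 ± 0.20, adjusted p 0.00375). In bone marrow 0 of 6 were called by limma, and 1 had an unadjusted p under 0.05, as did 4908 of all 14271 genes. By edgeR and DESeq2 1 each was called lower, and the median was 0.13, the same as over all genes.

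Ribosomal protein genes that carry snoRNAs moved the way Snhg5 did in fetal liver: 19 of 20 were called lower and 0 higher, with a median of -0.90. Rpl5 fell by 1.11 on the log2 scale (limma adjusted p 3.09e-05) and Rpl3 by 1.06 (adjusted p 9.8e-05). In bone marrow 5 of 20 were called lower (median -0.31), led by Rpl3 (-0.58, limma adjusted p 0.0189), Rpl4 (-0.52, 0.0219) and Rpl5 (-0.49, 0.0265). The bone marrow count was 0 without WT bone marrow replicate 1 or ETV6-RUNX1 bone marrow replicate 1 or 2, 10 without ETV6-RUNX1 bone marrow replicate 3, and 2 to 4 without each other library. Many pseudogenes resemble these genes, and the handling of reads they share is not stated, so the values are uncertain.

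Of 18 other protein-coding hosts, 16 were called lower and 1 higher in fetal liver (median -0.93). The ribosome assembly factor Ppan fell from 87.2 to 33.6 CPM (-1.35 ± 0.14 SE, limma adjusted p 3.5e-06). Dkc1, which encodes the pseudouridine synthase dyskerin and is itself a host, fell from 412 to 160 CPM (-1.36 ± 0.14, adjusted p 3.81e-06), and the nucleolar GTPase gene Gnl3 from 196 to 81.1 CPM (-1.26 ± 0.14, adjusted p 9.46e-06). In bone marrow 5 were called lower and 0 higher (median -0.27), and 3 without ETV6-RUNX1 bone marrow replicate 2. With edgeR 8 were lower and with DESeq2 9, beside 9.49% and 11.1% of all genes in those fits. They were led by the chaperone gene Hspa8, from 4019 to 2200 CPM (-0.87 ± 0.12, limma adjusted p 0.000548), followed by the chaperonin gene Tcp1 (-0.65, adjusted p 0.00418) and Dkc1 (-0.61, adjusted p 0.008).

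The proteins that bind and assemble snoRNAs formed a list of 19 genes, which shares Nop56, Nop58 and Dkc1 with the list of hosts. In fetal liver 15 were called lower and 0 higher (median -0.93). Besides Dkc1, the assembly ATPase genes Ruvbl1 (248 to 105 CPM, -1.23 ± 0.11 SE, limma adjusted p 7.56e-07) and Ruvbl2 (245 to 99.8 CPM, -1.29 ± 0.12, adjusted p 2.11e-06) led. In bone marrow 5 were called lower and 1 higher (median -0.30). The lower count was 3 without WT bone marrow replicate 3, 2 without ETV6-RUNX1 bone marrow replicate 2, and 9 with edgeR or DESeq2, whose shares over all genes were given above. The one that rose was Gar1, an H/ACA core protein, from 9.57 to 34.8 CPM (1.69 ± 0.33, limma adjusted p 0.00406), while Snu13, which binds the box C/D fold, fell (-0.65, adjusted p 0.00704).

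For nonsense-mediated decay factors the calls by limma were all higher. In fetal liver 2 of 10 were called higher, a share below the 24.8% of all genes, and 0 lower, with 1 lower by edgeR and DESeq2 (median 0.25): Smg5 rose from 41.6 to 63.0 CPM (0.59 ± 0.14 SE, limma adjusted p 0.00335) and the kinase gene Smg1 from 33.3 to 57.6 CPM (0.80 ± 0.20, adjusted p 0.00471). In bone marrow 3 of 10 were called higher (median 0.48), Smg9 (0.87, limma adjusted p 0.00382), Smg5 (0.69, adjusted p 0.00422) and the helicase gene Upf1 (0.66, adjusted p 0.0111).

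Regulators of mTORC1 and of 5′ TOP translation were split. In fetal liver 2 of 15 were called higher (0 without WT fetal liver replicate 2 or 3 or ETV6-RUNX1 fetal liver replicate 2, and 4 without WT fetal liver replicate 1) and 2 lower (median 0.23), both shares below those of all genes, with the translation repressor genes Eif4ebp1 (-0.56 ± 0.14 SE, limma adjusted p 0.00595) and Eif4ebp2 (-0.99 ± 0.27, adjusted p 0.00944) lower and the kinase gene Mtor higher (0.59 ± 0.20, adjusted p 0.0254). The other gene called higher was the mTORC1 inhibitor Tsc2 (0.70 ± 0.24, limma adjusted p 0.029), named after its value was seen. Mtor was called in 16 of 22 alternatives and not without WT fetal liver replicate 2 or 3 or ETV6-RUNX1 fetal liver replicate 1 or 2 (its log2 fold change ran from 0.35 to 0.73 over all 22). In bone marrow 3 were called higher and 0 lower: the inhibitors Sesn2 (1.13, limma adjusted p 0.00232), Akt1s1 (1.90, adjusted p 0.00297) and Ddit4 (1.17, adjusted p 0.0411). Sesn2 and Akt1s1 were called in 22 of 22 alternatives and Ddit4 in 7 of 21. Ddit4 was lost under every other scaling tried, edgeR and DESeq2 included, and without WT bone marrow replicate 1 or 2, ETV6-RUNX1 bone marrow replicate 1 or 2, WT fetal liver replicate 3 or ETV6-RUNX1 fetal liver replicate 1 (0.75 to 1.51 over the alternatives). The bone marrow median was at 0.00.

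**Figure D5:**
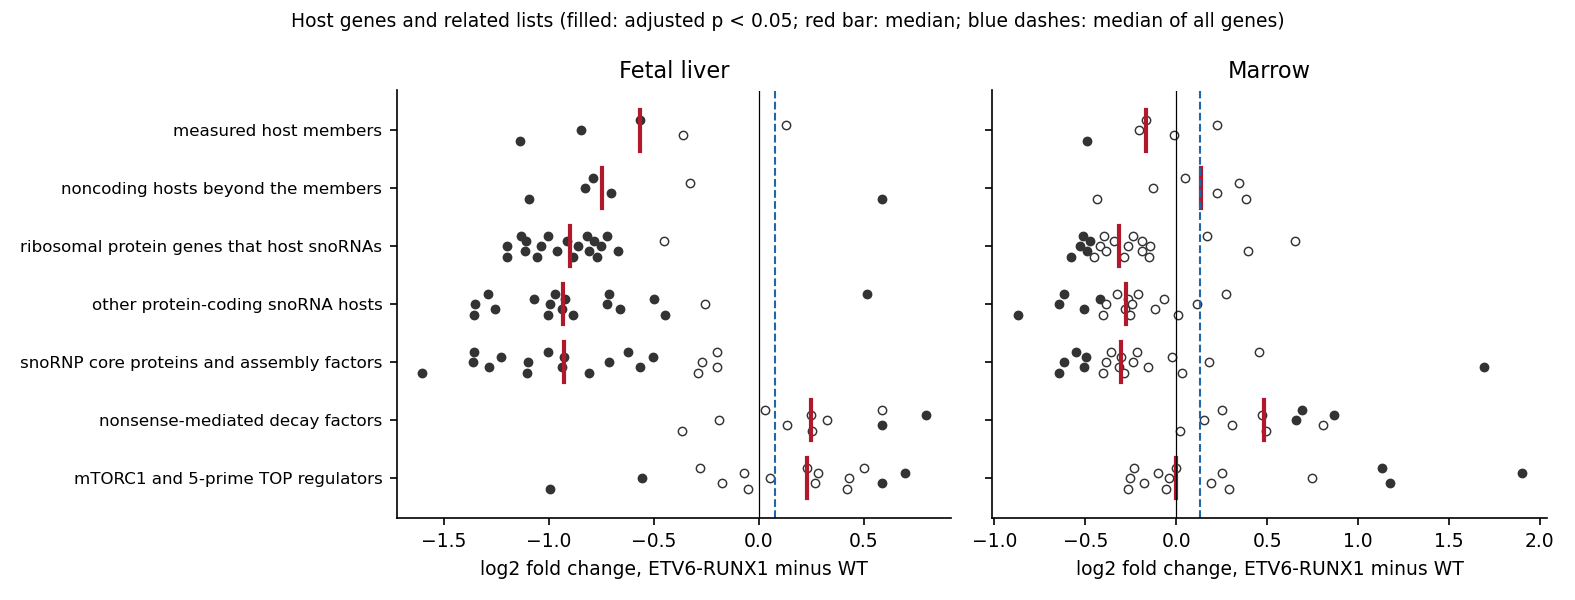
Log2 fold change (ETV6-RUNX1 minus WT, log2(CPM + 1) scale) of each tested gene of the members and the 6 lists in fetal liver and bone marrow, with each list's median. In fetal liver the ribosomal protein hosts, other protein-coding hosts and snoRNP genes have medians between -0.93 and -0.90, and decay factors lie at 0.25.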

How the data were processed

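The authors deposited a table of CPM per gene for 12 libraries. Per the labels' protocols, total RNA was made into stranded libraries with a kit for small inputs and read as pairs. Per the submitters' processing notes, the build was GRCm38 and the tools included STAR 2.5.1a, featureCounts 1.4.6-p5, Salmon 0.8.2, edgeR and limma, and their roles, the annotation release and the strand setting are not given in the sources used here. The table had 40757 entries, of which 276 repeated a gene ID with identical values and were kept once. The values were whole multiples of 1 read (100.0% within 0.0001 reads), so reads were recovered.

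CPM values were transformed as log2(CPM + 1), and the 14271 genes that reached 1 CPM in 3 or more libraries were tested with limma 3.58.1 (trend, two-sided) over 4 groups of 3, with Benjamini-Hochberg adjustment and a threshold of 0.05. All 5 measured hosts passed this filter. On the recovered reads edgeR 4.0.16 called 6178 genes in fetal liver, 2739 in bone marrow and 1105 for the interaction, against 6151, 2763 and 1311 with limma. DESeq2 1.42.0 was a further alternative. The 22 alternatives were 10 settings and the leaving out of each of 12 libraries. GENCODE M21 held 40254 of the gene IDs (99.44%) and gave positions and snoRNAs. RefSeq promoters were matched by symbol for 4 of the 5 hosts.

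The host genes, lists and tests were chosen with earlier results of these data known. From each list at most the 3 called genes with the smallest adjusted p per genotype comparison are named, with neighbours that overlap a host or start within 5 kb of it, and the genes of most similar profile. A list member that met this rule is not reported here. The limma script was tested on simulated data.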

Additional observations from a re-analysis of the deposited data

Results flagged for a closer look

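The effect of ETV6-RUNX1 differed between fetal liver and bone marrow for 12 of 35 genes (limma interaction, adjusted p under 0.05). Of these, 1 had a positive value and 11 a negative one. The 35 were the 5 measured hosts, the tested neighbours, Snora24, Snord87 and the list genes named for their small adjusted p. Other genes named above were not counted. Over all genes tested the share was 9.19%. The list genes among the 35 were named for a small p in a single source, which favours such a difference, so the counts are not set against each other. None of the 5 measured hosts was among them. The positive one was Znfx1, the neighbour of Zfas1, at 2.02 (adjusted p 0.0107). Its rise in fetal liver was the larger.

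Of the hosts and snoRNP genes, the interaction was -1.21 for Epb41l4aos (adjusted p 0.0154), -1.47 for Ppan (0.000361), -0.74 for Dkc1 (0.0296) and -0.87 for Gnl3 (0.0146). It was -0.91 for Ruvbl1 (adjusted p 0.00207), -0.98 for Ruvbl2 (0.00316) and -1.96 for Gar1 (0.0195), which rose in bone marrow. Among the others, Smg9 had -0.84 (adjusted p 0.0434), Upf1 -1.02 (0.0115), Eif4ebp1 -0.85 (0.0181) and Slc3a2, which was called in opposite directions in the sources, -0.65 (0.0201).

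Over 22 alternatives the interaction call of Smg9 held in 7, and it was lost when each library was left out in turn except WT bone marrow replicate 1 and ETV6-RUNX1 fetal liver replicate 3 (-1.01 to -0.73 over all alternatives). That of Dkc1 held in 10 and was lost for 8 of the 12 libraries left out (-0.88 to -0.65), all but WT bone marrow replicate 1, ETV6-RUNX1 bone marrow replicate 2, WT fetal liver replicate 1 and ETV6-RUNX1 fetal liver replicate 1. That of Gar1 held in 17, not without WT bone marrow replicate 2, ETV6-RUNX1 bone marrow replicate 1, WT fetal liver replicate 2 or ETV6-RUNX1 fetal liver replicate 2 (-2.35 to -1.68). Eif4ebp1 held in 20, not without WT fetal liver replicate 2 or ETV6-RUNX1 fetal liver replicate 1 (-1.01 to -0.72). Slc3a2 held in 18, not without WT bone marrow replicate 2, WT fetal liver replicate 2 or 3 or ETV6-RUNX1 fetal liver replicate 2, where it was -0.65 to -0.61. Znfx1 held in 21 (1.81 to 2.39 over all alternatives). Epb41l4aos, Ppan, Gnl3, Ruvbl1, Ruvbl2 and Upf1 held in 22 of 22.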

How the results depend on the processing

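Over 25 results of the measured hosts and 22 alternatives, 475 of 550 values kept direction and side of the threshold, 39 lost the call, 11 gained it and 25 changed sign. Scaling set the direction of calls over all genes: in fetal liver 57.6% of calls were higher and 42.0% with quantile normalization, in bone marrow 74.5% and 50.6% with median-of-ratios scaling, for the interaction 60.6% and 74.5%, for source within WT 30.3% and 41.0%, and for source within ETV6-RUNX1 36.3% and 58.7%. The median of all genes moved from 0.08 to -0.10 and, in bone marrow, from 0.13 to 0.00. The cause of the changes below was not tested.

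Without a filter no host was called lower in bone marrow (0), and 767 genes were called for the interaction. Array weights gave 3637 genes and 4 hosts for the interaction and 4401 genes for source within WT, against 1311, 0 and 1591. For source within ETV6-RUNX1 the hosts called lower were 1 under median-of-ratios scaling, TMM scaling, edgeR and DESeq2, and 2 under quantile normalization, against 4.

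Signs turned as follows. With array weights Zfas1 was at -0.11 in fetal liver, 0.087 in bone marrow, -0.20 for the interaction, 0.072 for source within WT and -0.13 within ETV6-RUNX1, and for source within WT Gas5 was at 0.024 and Snora24 at 0.0065. With quantile normalization in bone marrow Snhg12 was at -0.033 and Gas5 at 0.024. For source within WT, Gas5 was at 0.0025 with median-of-ratios scaling and 0.011 with TMM, and Zfas1 at 0.0080 and 0.017.

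When single libraries were left out, genes called ran from 1520 (without ETV6-RUNX1 bone marrow replicate 2) to 2924 in bone marrow, from 731 to 2332 for the interaction and from 868 to 2781 for source within WT, the highest of both without WT bone marrow replicate 1 and the lowest without WT bone marrow replicate 2. Hosts called lower ran from 0 to 1 in bone marrow, 0 to 4 for the interaction and 1 to 4 for source within ETV6-RUNX1. In bone marrow Gas5 ran from -0.33 to 0.043 and Zfas1 from -0.17 to 0.22. Zfas1 ran from -0.088 to 0.39 for the interaction and from -0.075 to 0.31 for source within ETV6-RUNX1. For source within WT the ranges were -0.28 to 0.0017 for Snhg5, -0.11 to 0.20 for Snhg12, -0.26 to 0.11 for Gas5, -0.25 to 0.15 for Zfas1 and -0.26 to 0.16 for Snora24.

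Deviations from the group means had a median correlation of -0.0425 in 18 same-numbered pairs (-0.442 to 0.39) and 0.022 in 36 others (-0.495 to 0.656). With 3 libraries per group these values cannot settle whether the replicate numbers pair the samples. With the replicate number as a block 5838 genes were called in fetal liver, 2334 in bone marrow and 1033 for the interaction. Among the hosts the block ended the call of Gas5 for source within ETV6-RUNX1 (-0.50).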
